A study of Mus musculus with 9 samples.

Results

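The enzymes that make itaconate, attach it or its isomer mesaconate to coenzyme A and break the product down are encoded by Acod1, Suclg1, Suclg2, Sucla2, Sugct, Auh and Clybl. These 7 genes were taken by name from the 42188 genes of the deposited tables, and each name matched 1 gene. Liver RNA was sequenced as 9 libraries, 3 per group, from wild-type mice that the labels describe as 8-week-old C57BL/6J males of 20 to 25 g. In the MSA_ConA group, 250 mg/kg of MSA went into the peritoneum 6 h before 20 mg/kg of concanavalin A (ConA) went into the tail vein. MSA was read as mesaconate, which the title of the study names. The ConA group had the same dose of concanavalin A alone, a lectin from jack beans that drives T cells to attack the liver, and the Control group had phosphate-buffered saline by that vein. Livers were taken 12 h after concanavalin A. The libraries of a group carry the numbers 1 to 3, and the sources used here do not say whether tissue was pooled, so p-values measure the spread between libraries, which may be technical. Group comparisons take that spread from the 3 libraries of each group, and fits of numbers 2 and 3 or of differences of effect between library numbers take it from numbers 2 and 3 only.

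Itaconate is made in mitochondria from cis-aconitate, an intermediate of the tricarboxylic acid cycle, by the decarboxylase that Acod1 encodes, chiefly in activated myeloid cells. Succinate-CoA ligase, an alpha subunit from Suclg1 paired with a beta subunit from Suclg2 (the GTP-linked form) or Sucla2 (the ATP-linked form), can attach itaconate to coenzyme A, and so can the transferase from Sugct. Auh encodes a hydratase of leucine degradation that also turns itaconyl-CoA into citramalyl-CoA, and Clybl encodes the lyase that splits citramalyl-CoA into acetyl-CoA and pyruvate. Mesaconate is an isomer of itaconate with the double bond inside the carbon chain. The 6 enzymes other than Acod1 are mitochondrial proteins found in hepatocytes and many other cells.

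In the deposited annotation, which uses the C57BL/6NJ strain assembly, all 7 are protein-coding genes. Acod1 lies at chr14:103547901-103558306, Sucla2 at chr14:71314426-71362022 and Clybl at chr14:124678506-124930190, each on the plus strand. Suclg1 lies at chr6:75762164-75790516 on the plus strand and Suclg2 at chr6:99695132-99949879 on the minus strand. Sugct lies at chr13:14607823-15471818 and Auh at chr13:53748319-53850016, both on the minus strand.

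The 250 bases before the annotated start are shown for Acod1, the one enzyme of the route that is switched on in inflammation, and for Sucla2, Auh and Clybl, the enzymes called in a test by library number. The sequences are those of RefSeq on GRCm38.p6, each on the strand of its gene, at chr14:103046762-103047011 (Acod1, plus), chr14:73552536-73552785 (Sucla2, plus), chr13:52929678-52929927 (Auh, minus) and chr14:122181444-122181693 (Clybl, plus). Capitals mark matches, on either strand, to an IRF-type motif (AANNGAAA), an NF-kappa-B-type motif (GGNNNTTCC), an AP-1-type motif (TGANTCA) or a TATA box (TATAAA).
Acod1: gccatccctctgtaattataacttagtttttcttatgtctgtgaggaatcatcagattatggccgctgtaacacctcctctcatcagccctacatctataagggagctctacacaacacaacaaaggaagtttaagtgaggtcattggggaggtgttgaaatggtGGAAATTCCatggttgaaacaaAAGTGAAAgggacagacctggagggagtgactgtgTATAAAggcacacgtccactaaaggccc
Sucla2: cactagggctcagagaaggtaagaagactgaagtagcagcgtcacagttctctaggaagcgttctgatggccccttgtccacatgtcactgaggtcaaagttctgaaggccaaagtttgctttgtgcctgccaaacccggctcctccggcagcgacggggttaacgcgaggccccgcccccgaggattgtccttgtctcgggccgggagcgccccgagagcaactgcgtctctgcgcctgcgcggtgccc
Auh: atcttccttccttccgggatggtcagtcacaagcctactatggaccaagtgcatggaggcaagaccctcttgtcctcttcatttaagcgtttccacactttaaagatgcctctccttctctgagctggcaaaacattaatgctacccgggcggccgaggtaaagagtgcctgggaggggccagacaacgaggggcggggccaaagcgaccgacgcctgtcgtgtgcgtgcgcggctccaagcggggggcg
Clybl: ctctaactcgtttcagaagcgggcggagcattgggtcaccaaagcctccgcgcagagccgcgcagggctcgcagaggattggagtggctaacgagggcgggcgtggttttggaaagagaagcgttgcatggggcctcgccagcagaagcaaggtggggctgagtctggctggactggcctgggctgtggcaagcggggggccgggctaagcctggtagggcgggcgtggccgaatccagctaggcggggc
The Acod1 window held 1 NF-kappa-B-type match (GGAAATTCC) 85 to 77 bases before the start, 1 IRF-type match (AAGTGAAA) 63 to 56 bases before it and a TATA box 28 to 23 bases before it. The other 3 windows shown, and that of Sugct, held no match, while Suclg1 held 1 NF-kappa-B-type match and Suclg2 held 1 of that type and 1 IRF-type match. Of 27025 mouse promoters of this length, 21.6% held the IRF-type motif, 15.6% the NF-kappa-B-type, 6.87% the AP-1-type and 13.0% the TATA box, so each match is common and is a description only. CpG dinucleotides numbered 2 in the Acod1 window and 18, 16 and 19 in those of Sucla2, Auh and Clybl, and 19.4% of promoters had fewer than Acod1.

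The libraries held 13294600 to 17276391 counts, and the libraries numbered 1 stood apart from the others in all 3 groups. Xist, the RNA of the inactive X chromosome of females, measured at most 0.485 CPM (a count scaled by the size of its library) in number 1 and 666 to 1130 CPM in numbers 2 and 3. Nnt, whose gene lacks exons in the C57BL/6J strain and encodes a proton-pumping enzyme of mitochondria, had a level of 29.8 to 34.6 CPM in number 1, against 168 to 266 CPM in numbers 2 and 3. The values of numbers 2 and 3 thus go against a label of C57BL/6J males, so each library is named by its label. CPM values carry edgeR's TMM scaling, with factors of 0.571, 0.673 and 0.950 in MSA_ConA 1, ConA 1 and Control 1 and of 1.11 to 1.26 elsewhere. The 20 genes with the most counts held 33.5%, 26.7% and 28.1% of all counts in these 3 libraries and 23.3% to 25.3% in the 6 others. Number and group were crossed, so members are compared with and without number 1. Hepatocyte markers summed to 111568 CPM or more in every library (10 of 12 matched), and the 8 kidney markers to at most 0.263 CPM.

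Divided by annotated gene length and averaged over the 9 libraries, the ligase subunits stood above the other members, with Auh and Acod1 below the rest. The level averaged 47.7 ± 5.61 FPKM (fragments scaled by gene length and library size, SD over libraries) for Suclg1, 44.1 ± 10.3 FPKM for Suclg2 and 37.7 ± 9.30 FPKM for Sucla2. It averaged 27.4 ± 4.58 FPKM for Sugct, 27.0 ± 11.9 FPKM for Clybl and 4.33 ± 1.38 FPKM for Auh. The first 5 in this order each overlapped in range with their neighbours, while by FPKM Auh lay below all 5 in every library. The annotated length that FPKM divides by was 9580 bases for Auh, 1311 for Sugct and 1239 for Clybl. By CPM, which has no such divisor, Auh averaged 41.7, above Sugct at 36.1 and Clybl at 33.6. The FPKM order was not the same in each group. In Control, Clybl averaged 33.7 FPKM and Sucla2 32.0 FPKM. In Control 1 Clybl, at 52.3 FPKM, was above Suclg1 at 49.5 FPKM. Acod1 ranged from a listed 0 to 18.9 FPKM. In 8 libraries it was the lowest member, and in ConA 1 it lay above Auh at 3.53 FPKM.

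**Figure D1:**
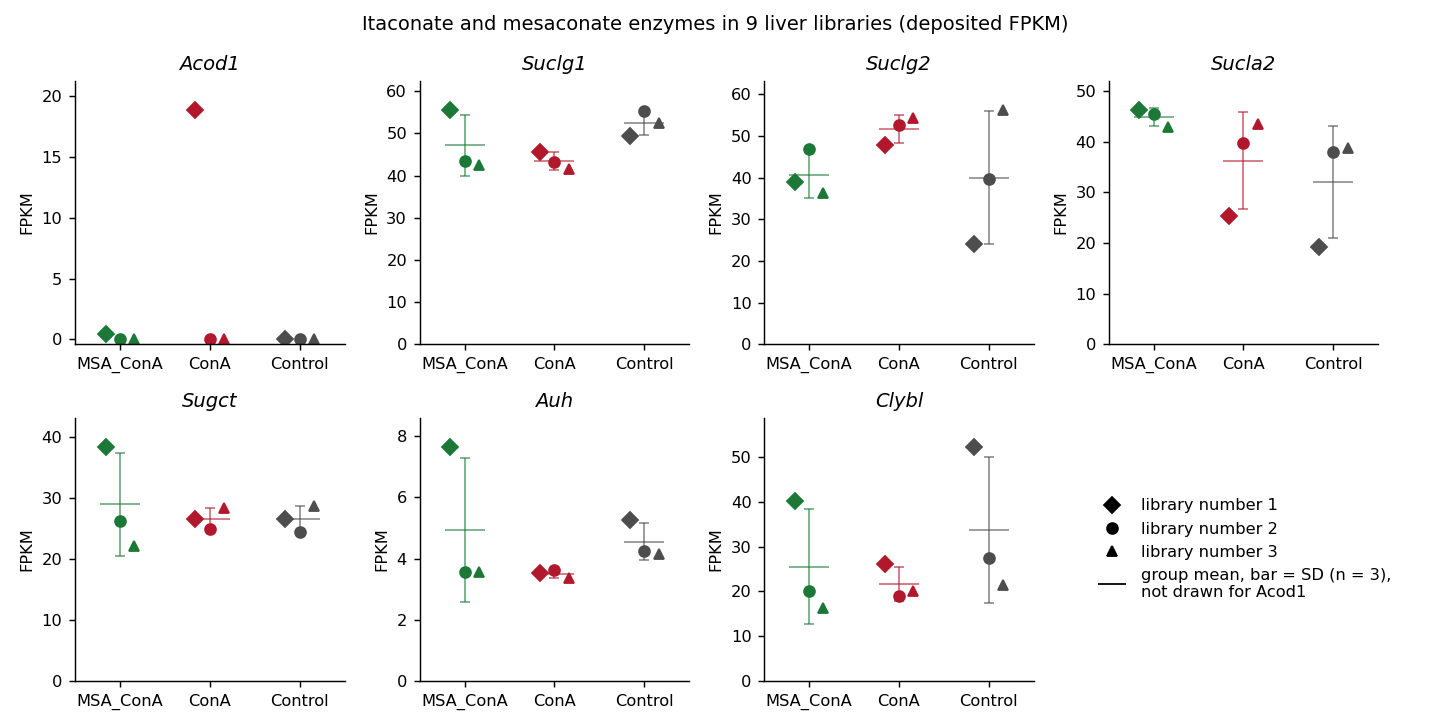
Deposited FPKM of the 7 enzyme genes (vertical axes, linear) in MSA_ConA, ConA and Control livers, 1 point per library with the shape giving its number, a line at the group mean and a bar for the SD (n = 3; not drawn for Acod1). Acod1 stands at 18.9 FPKM in ConA 1 alone, and Clybl is highest in the library numbered 1 of each group.

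Acod1 transcript was abundant in a single library, the one labelled ConA 1. Its deposited counts were 8, 0 and 0 in MSA_ConA 1, 2 and 3, 509, 0 and 1 in ConA 1, 2 and 3, and 1, 0 and 2 in Control 1, 2 and 3. The corresponding levels were 1.05, 0 and 0 CPM in MSA_ConA, 49.3, 0 and 0.0567 CPM in ConA, and 0.0745, 0 and 0.104 CPM in Control. In the libraries at 0, that count allows up to 0.185 to 0.195 CPM of the library total (3 counts), so no difference was detectable at this depth among numbers 2 and 3. Because these are whole livers, fewer cells of a type and less RNA per cell cannot be told apart.

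Acod1 was the 1 member of 7 that did not pass the filter on low counts, and it has no place among the 14603 genes tested. With no filter (24904 genes) it was not called between groups by edgeR's quasi-likelihood test: adjusted p = 1 for MSA_ConA against ConA, adjusted p = 0.963 for MSA_ConA against Control and adjusted p = 0.918 for ConA against Control. In that fit it was called higher in number 1 than in numbers 2 and 3 (adjusted p = 0.000371, 23.2% of genes called), a call that includes the 509 counts of ConA 1. The difference of the effect between number 1 and numbers 2 and 3 was called for ConA against Control (adjusted p = 0.00136, 19.1% of genes called) and for MSA_ConA against Control (adjusted p = 0.0274, 19.7%). It was not called for MSA_ConA against ConA (adjusted p = 0.99995, 12.6%). In numbers 2 and 3 the Acod1 counts were 0 and 0 in MSA_ConA and 0 and 1 in ConA. The effect there has no usable estimate, so that test cannot decide whether it differed from number 1. The call for MSA_ConA against Control rests on 8 counts in MSA_ConA 1 against 1 in Control 1.

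Between single libraries numbered 1, with no replicate check, the Acod1 level in MSA_ConA 1 was 46.8-fold lower than in ConA 1 (exact 95% limits 23.6 to 109, counting error only). It was 14.2-fold higher in MSA_ConA 1 than in Control 1 (1.90 to 628) and 662-fold higher in ConA 1 than in Control 1 (118 to 26218), and both of these rest on the 1 count of Control 1. Scaled by library totals, these 3 ratios were 55.2-fold lower, 8.51-fold higher and 469-fold higher. Ranked by ratios of CPM + 1, where the higher library reached 10 CPM, Acod1 had the 72nd lowest ratio of 8569 for MSA_ConA 1 over ConA 1 and the 86th highest of 8930 for ConA 1 over Control 1.

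Transcription factors that act on Acod1 in macrophages were also high in ConA 1. Irf1, an interferon-induced activator, measured 14.2, 37.3 and 25.9 CPM in MSA_ConA, 1746, 37.5 and 37.8 CPM in ConA, and 44.1, 47.6 and 46.9 CPM in Control. Cebpb, a factor of myeloid cells and of the acute-phase liver, measured 998, 38.9 and 34.7 CPM in MSA_ConA, 1873, 54.9 and 43.9 CPM in ConA, and 97.7, 69.3 and 67.9 CPM in Control. Irf1 was thus lowest in MSA_ConA 1 while Cebpb was high there. Irf8 measured 302 CPM and Nfkb1 290 CPM in ConA 1, against 5.84 to 12.9 CPM and 28.2 to 34.9 CPM in the 8 other libraries. Of the 8 listed factors, none was called in any group comparison, and 5 were called higher for the difference of the ConA effect (31.0% of all genes called) and 5 lower for that of the MSA_ConA against ConA effect (18.7%). Leading them was Irf1, at a log2 difference of 5.63 (SE 0.36, adjusted p = 0.000231 by edgeR) and of -6.69 (SE 0.38, adjusted p = 0.000261).

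By summed CPM, neutrophil markers were highest in ConA 1, the library with the most Acod1, and so were monocyte and T and NK cell markers. All 12 neutrophil markers matched, and their CPM summed to 65.5, 4.81 and 4.89 in MSA_ConA, 485, 6.34 and 3.29 in ConA, and 10.3, 8.34 and 3.64 in Control. S100a9, which neutrophils hold in quantity, reached 28.4 CPM in MSA_ConA 1 and 261 CPM in ConA 1, and Ly6g was at 0 in 6 libraries, MSA_ConA 1 among them. Every marker of the list other than Elane was highest in ConA 1. The 8 of 10 matched monocyte and recruited macrophage markers summed to 8.03, 16.5 and 16.1 CPM in MSA_ConA, 42.7, 17.3 and 15.0 CPM in ConA, and 16.2, 13.7 and 15.2 CPM in Control, with Itgam at 0 in 8 libraries and Cx3cr1 at 0 in MSA_ConA 1 and ConA 1. In ConA 1, Fcgr4 gave 21.8 CPM and Chil3 11.8 CPM of that sum, and Ccr2 was lower there than in any other library. T and NK cell markers (11 of 11) summed to 40.3 CPM in ConA 1 and to 5.27 to 8.40 CPM elsewhere. Gzmb, a granzyme of cytotoxic cells, gave 24.8 CPM of the ConA 1 sum, while Cd3e, Cd3g and Ncr1 lay there within the range of the other libraries. Kupffer cell markers (12 of 12) summed to 275 to 379 CPM in MSA_ConA, 284 to 385 CPM in ConA and 343 to 625 CPM in Control. Among them Marco, a scavenger receptor, was highest in ConA 1, at 59.2 CPM against 0.669 to 18.2 CPM elsewhere, while Clec4f was lowest there, at 51.5 CPM. The part of these cells in the Acod1 values was not tested.

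**Figure D2:**
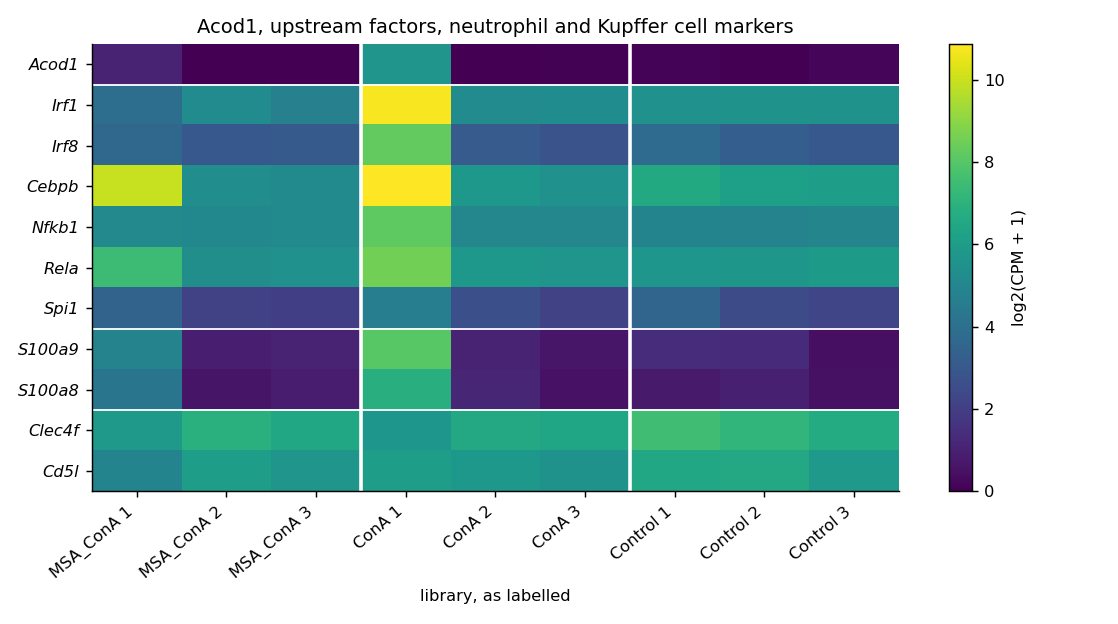
Colour gives log2(CPM + 1) of Acod1, 6 upstream factors, the neutrophil markers S100a9 and S100a8 and 2 of the Kupffer cell markers, Clec4f and Cd5l (rows from top to bottom) in the 9 libraries, MSA_ConA at the left, then ConA and Control. ConA 1 is the brightest column for Acod1 (49.3 CPM), Irf1 (1746 CPM) and S100a9 (261 CPM), but not for Clec4f.

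The succinate-CoA ligase subunits were expressed in all libraries, and Suclg2 held a lower share of the beta subunits in every MSA_ConA library than in every ConA library. Suclg1, the shared alpha subunit, measured 244, 195 and 197 CPM in MSA_ConA, 204, 202 and 186 CPM in ConA, and 224, 253 and 240 CPM in Control. All 3 ConA values lay below all 3 Control values, with means of 198 ± 9.77 CPM and 239 ± 14.6 CPM (SD, n = 3 each), while MSA_ConA overlapped with both. Suclg2, the GTP-linked beta subunit, measured 82.8, 102 and 81.3 CPM in MSA_ConA, 104, 119 and 118 CPM in ConA, and 52.7, 87.7 and 124 CPM in Control. Every MSA_ConA value lay below every ConA value, and Control spanned both groups. Sucla2, the ATP-linked beta subunit, measured 161, 161 and 157 CPM in MSA_ConA, 89.6, 146 and 155 CPM in ConA, and 68.7, 137 and 140 CPM in Control. The MSA_ConA values lay above all others, by a margin over ConA 3 that was absent on the FPKM scale (43.0 FPKM in MSA_ConA 3 and 43.6 FPKM in ConA 3), and ConA 1 and Control 1 were the lowest libraries.

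As a share of beta subunit transcripts (Suclg2 and Sucla2 summed as FPKM), a measure within each library that no scaling moves, Suclg2 made up 45.7%, 50.8% and 45.8% in MSA_ConA, 65.3%, 56.9% and 55.5% in ConA, and 55.6%, 51.1% and 59.1% in Control. All MSA_ConA shares were below all others, and ConA and Control overlapped. No test was made of this share, which was chosen after the values were seen. A gene model on chromosome X (159439851 to 159441974 in the C57BL/6NJ assembly), which resembles Suclg2, held 28 to 100 counts per library against 629 to 2387 for Suclg2, so the split of reads between them is uncertain. Skeletal muscle markers (14 genes), in a tissue rich in Sucla2, summed to 121, 372 and 4966 CPM in MSA_ConA, 3.39, 398 and 68.8 CPM in ConA, with no Control sum above 2.45 CPM. In MSA_ConA 1 the calcium pump gene Atp2a1 gave 119 CPM of that sum and 10 of the 14 markers, Ckm and Myh4 among them, were at 0. The part of muscle in the Sucla2 values was not tested.

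**Figure D3:**
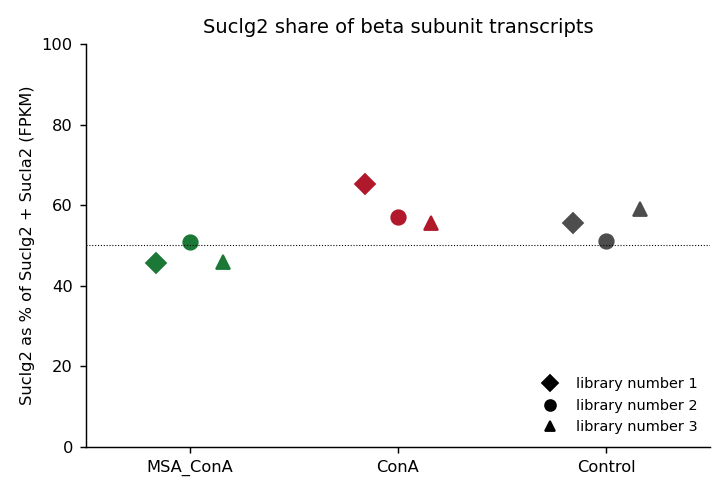
Suclg2 as a percentage of Suclg2 plus Sucla2 FPKM (vertical axis from 0 to 100%) in each library, with groups along the horizontal axis and point shape giving the library number; the dotted line marks equal shares. MSA_ConA lies at 45.7% to 50.8%, below ConA at 55.5% to 65.3% and Control at 51.1% to 59.1%.

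Sugct, the transferase that exchanges coenzyme A between succinyl-CoA and glutarate, ranged from 29.9 to 38.2 CPM in the 8 libraries other than MSA_ConA 1. It measured 49.3, 34.4 and 29.9 CPM in MSA_ConA, 34.7, 34.0 and 37.2 CPM in ConA, and 35.0, 32.5 and 38.2 CPM in Control. MSA_ConA 1 was the highest library and MSA_ConA 3 the lowest, so the groups overlapped throughout. By library totals ConA 3 was highest, at 43.6 CPM, and ConA 1 lowest, at 23.4 CPM. MSA_ConA 1 stood at 28.1 CPM on that scale, and the groups overlapped there too.

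By CPM and FPKM, the hydratase and the lyase both had their highest levels in libraries numbered 1. Auh measured 71.8, 34.0 and 35.3 CPM in MSA_ConA, 33.6, 36.1 and 32.2 CPM in ConA, and 50.6, 41.4 and 40.5 CPM in Control. All ConA values lay below all Control values, at 34.0 ± 1.99 CPM and 44.1 ± 5.58 CPM (SD, n = 3 each), and also by FPKM and by library totals. MSA_ConA 1 was the highest of all by CPM and FPKM, but by library totals, at 41.0 CPM, it lay below all 3 Control libraries. Control 2 was the highest library for Auh on that scale, at 48.8 CPM. Clybl measured 48.9, 24.9 and 20.7 CPM in MSA_ConA, 32.1, 24.4 and 24.8 CPM in ConA, and 65.1, 34.6 and 26.9 CPM in Control. In each group number 1 was the highest library, and by group means Clybl was lowest in ConA, with overlap between all groups. By library totals number 1 was highest in Control only, and ConA 1, at 21.6 CPM, was the lowest ConA library.

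What mesaconate did on top of concanavalin A was addressed by MSA_ConA against ConA. None of the 6 tested members was called, nor was any of the 14603 genes (0.0% called) by edgeR at a Benjamini-Hochberg adjusted p under 0.05. Unadjusted, 248 genes had p under 0.05, and limma-voom and DESeq2 called 0 as well, with 43 and 308 genes at an unadjusted p under 0.05. The largest log2 fold changes were 0.47 (SE 0.34) for Auh, -0.36 (SE 0.35) for Suclg2 and 0.29 (SE 0.37) for Sucla2, all at an edgeR adjusted p of 0.99999. The CPM ranges did not overlap for Sucla2, higher, and Suclg2, lower, which is 2 of 6 members against 4.87% of all genes; by library totals neither stayed apart. Within numbers 2 and 3, the Suclg2 value was -0.37 (SE 0.19) and that of Auh 0.03 (SE 0.13), none was called (0.0%), and the same pair of genes did not overlap, against 35.0% of all genes.

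What both agents together did against saline was addressed by MSA_ConA against Control. Again 0 of 6 members and 0 of 14603 genes (0.0%) were called by edgeR, with 730 genes at an unadjusted p under 0.05, and 0 were called by limma-voom (492 unadjusted), against 55 by DESeq2 (971 unadjusted), no member among them. The Sucla2 log2 fold change was 0.47 (SE 0.37, adjusted p = 0.958 by edgeR) and that of Clybl -0.42 (SE 0.44, adjusted p = 0.979). Sucla2, higher, was the 1 of 6 members whose ranges did not overlap, against 13.8% of all genes; by library totals Sucla2 overlapped, and Auh and Clybl lay lower instead. In numbers 2 and 3, Clybl stood at -0.43 (SE 0.18), Suclg1 at -0.32 (SE 0.14) and Auh at -0.24 (SE 0.13), with adjusted p from 0.198 to 0.295 by edgeR. The ranges there did not overlap for Sucla2 (higher) and for Suclg1, Auh and Clybl (lower), 4 of 6 members against 55.1% of all genes.

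What concanavalin A did was addressed by ConA against Control. edgeR called 0 of 6 members and 0 of 14603 genes (0.0%), with 563 at an unadjusted p under 0.05. DESeq2 called 2 (702 unadjusted), neither of them a member, and limma-voom 0 (240 unadjusted). The log2 fold change was -0.64 (SE 0.44) for Clybl, -0.38 (SE 0.34) for Auh, -0.27 (SE 0.27) for Suclg1 and 0.36 (SE 0.35) for Suclg2, all at an edgeR adjusted p of 0.9997. Suclg1 and Auh, both lower, were the 2 of 6 members whose ranges did not overlap, against 12.3% of all genes; by library totals Suclg1 overlapped and Auh and Clybl did not. In numbers 2 and 3, Suclg1 stood at -0.35 (SE 0.14), Clybl at -0.33 (SE 0.18) and Auh at -0.26 (SE 0.13), with adjusted p from 0.423 to 0.481 by edgeR. There Sucla2 (higher) and Suclg1, Auh and Clybl (lower) did not overlap, 4 of 6 members against 47.4% of all genes. The comparisons with Control share its 3 libraries, so these pairs of values are not independent.

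**Figure D4:**
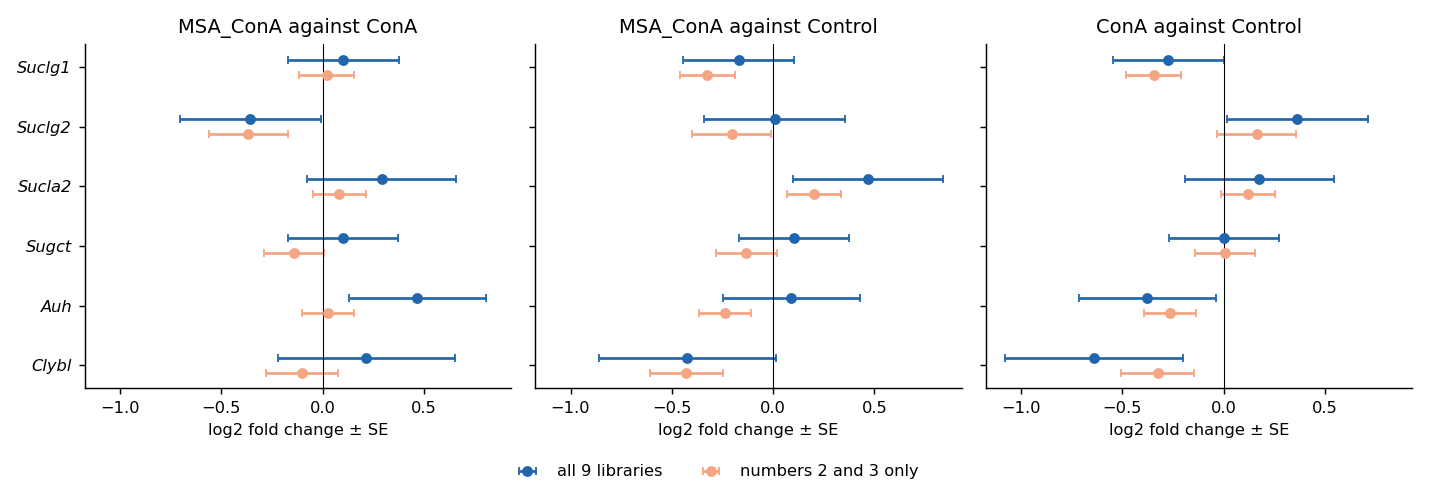
Log2 fold change (horizontal axes, bars ± SE, edgeR) of the 6 tested members in MSA_ConA against ConA, MSA_ConA against Control and ConA against Control, from all 9 libraries (dark) and from numbers 2 and 3 only (light). No value was called; with number 1 left out, Auh in MSA_ConA against ConA stands at 0.03 in place of 0.47, and Suclg1, Auh and Clybl lie below 0 in both comparisons with Control.

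Number 1 against numbers 2 and 3, with the group in the model, called 5593 of 14603 genes (38.3%) and 1 of 6 members. Clybl was higher in number 1, at 48.7 ± 16.5 CPM (SD, n = 3), than in numbers 2 and 3, at 26.0 ± 4.66 CPM (SD, n = 6), with a log2 fold change of 0.87 (SE 0.20, adjusted p = 0.0108 by edgeR); no member had ranges apart, against 34.0% of all genes. By library totals this was 0.16 (SE 0.25, adjusted p = 0.622) and no longer a call; that scaling moved the median of all genes to -0.81, against -0.10 with TMM. Sucla2 had -0.56 (SE 0.22, adjusted p = 0.0763), and -0.88 (adjusted p = 0.0146) without MSA_ConA 1; Auh had 0.47 (SE 0.21, adjusted p = 0.113), and 0.69 (adjusted p = 0.0486) without ConA 1. In the untreated libraries by themselves, Control 1 had 65.1 CPM of Clybl, against 34.6 and 26.9 CPM in Control 2 and 3, and 68.7 CPM of Sucla2, against 137 and 140 CPM.

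A test of the difference of effects between number 1 and numbers 2 and 3 called Auh and Sucla2. Number 1 is 1 library per group in this test, which has 3 residual degrees of freedom, all from numbers 2 and 3, and the lone library is assumed to vary as they do. The MSA_ConA against ConA effect on Auh was higher in number 1 by a log2 difference of 1.07 (SE 0.23, adjusted p = 0.0208 by edgeR), the 1 member of 6 called, with 18.7% of all genes called. Leaving out MSA_ConA 2, MSA_ConA 3 or ConA 2 ended this call, with 1.05, 1.04 and 0.98 (adjusted p = 0.0507, 0.0537 and 0.0620 by edgeR), and so did library totals (0.79, adjusted p = 0.0609). The count of genes called there was 1631 without ConA 2 and 1368 without ConA 3, against 2726 with all libraries. The MSA_ConA against Control effect was higher in number 1 for Sucla2 (1.03, SE 0.23, adjusted p = 0.0148 by edgeR) and Auh (0.75, SE 0.23, adjusted p = 0.0418), 2 of 6 members against 32.6% of all genes. The Sucla2 call held without each other library (adjusted p up to 0.0480) and was lost by library totals (0.20, adjusted p = 0.477). The Auh call was lost without any one of MSA_ConA 2, MSA_ConA 3, ConA 2, ConA 3, Control 2 and Control 3 (0.70 to 0.74, adjusted p = 0.0704 to 0.110 by edgeR), and by library totals the value was -0.08. For the ConA against Control effect, 0 of 6 members were called against 31.0% of all genes, with Suclg2 at 0.81 (SE 0.35, adjusted p = 0.117) and Clybl at -0.70 (SE 0.30, adjusted p = 0.113).

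The single libraries numbered 1 carry these differences and have no replicate check. Auh was 2.13-fold higher in MSA_ConA 1 than in ConA 1 (exact 95% limits 1.86 to 2.45) and Sucla2 1.79-fold higher (1.64 to 1.95). Sucla2 was 2.34-fold higher in MSA_ConA 1 than in Control 1 (2.14 to 2.55), while Clybl was 1.33-fold lower (1.18 to 1.51). In ConA 1 against Control 1, Suclg2 was 1.97-fold higher (1.79 to 2.16), Clybl 2.03-fold lower (1.79 to 2.31) and Auh 1.50-fold lower (1.32 to 1.72). By library totals, Sucla2 was 1.40-fold higher in MSA_ConA 1 than in Control 1, Auh 1.17-fold lower there, and Auh 1.81-fold higher in MSA_ConA 1 than in ConA 1. Ratios of CPM + 1 were also counted where the higher library reached 10 CPM. For MSA_ConA 1 over ConA 1, 1 of 7 members, Auh, was higher by 2-fold or more (14.2% of genes) and 1, Acod1, lower by as much (17.8%). For MSA_ConA 1 over Control 1, 1 of 6 was higher by that margin, Sucla2 (22.4%), and for ConA 1 over Control 1, 1 of 7, Acod1 (24.4%). In both pairs 0 members were lower by it (16.6% of genes in each). Clybl, 2.03-fold lower in ConA 1 than in Control 1 by plain CPM, fell short of the margin only through the added 1.

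**Figure D5:**
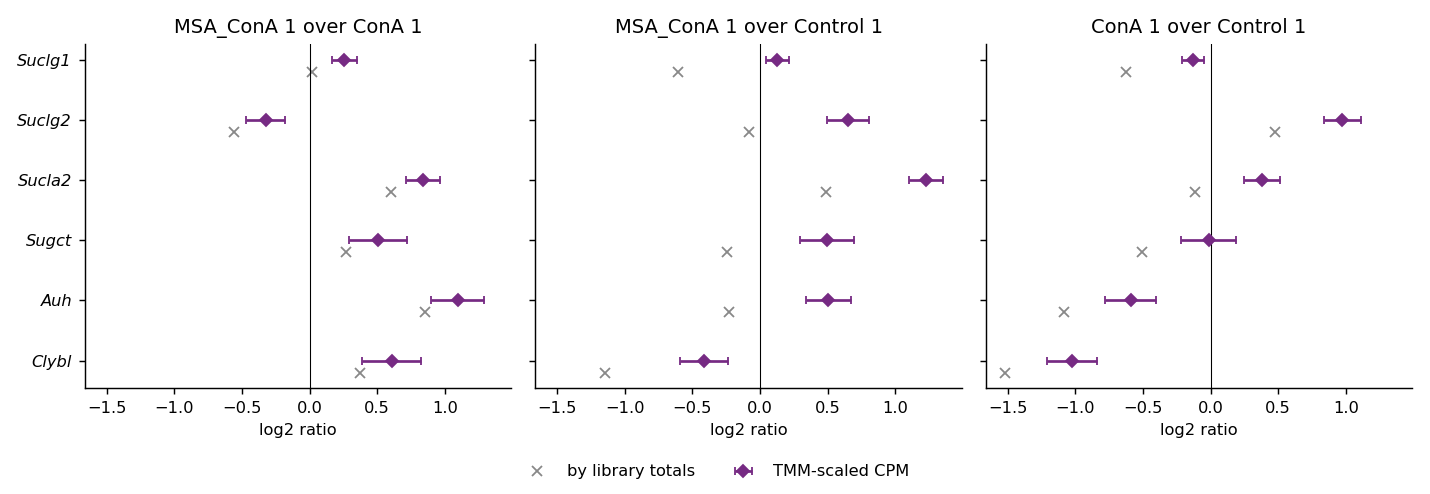
Log2 ratio between single libraries numbered 1 (horizontal axes) for the 6 members above the filter, as TMM-scaled CPM with exact 95% limits for counting error (diamonds) and by library totals (crosses). Auh over ConA 1 and Sucla2 over both ConA 1 and Control 1 are above 0 in MSA_ConA 1 under either scaling, and Clybl in ConA 1 over Control 1 is below 0 under either.

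Genes that surround the route were described from lists of names. Of 18 genes of the tricarboxylic acid cycle, 0 were called in any group comparison, with a median log2 fold change of 0.24 for MSA_ConA against ConA (0.02 over all genes), 0.09 for MSA_ConA against Control (0.07) and -0.09 for ConA against Control (0.07). In numbers 2 and 3 only, these medians were 0.071, -0.048 and -0.059, so the second changed sign. Fh1, the fumarase that hydrates fumarate, measured 1795, 192 and 188 CPM in MSA_ConA, 575, 170 and 191 CPM in ConA, and 319, 206 and 190 CPM in Control. It was highest in MSA_ConA 1, and its MSA_ConA against Control effect differed between number 1 and numbers 2 and 3 by 2.55 (SE 0.26, adjusted p = 0.000996 by edgeR), 1 of 4 genes of the list called higher with 1 called lower (32.6% of all genes called). Idh3a, a subunit of isocitrate dehydrogenase, was highest in MSA_ConA 3, at 114 CPM against 29.0 to 72.0 CPM elsewhere, which is the library with 4966 CPM of muscle markers; their part in this was not tested.

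Among 8 genes of lysine and glutaryl-CoA degradation, the pathway of Sugct, 0 were called between groups, and 4 were called higher and 2 lower in number 1 (38.3% of all genes called). Aass, its first enzyme, measured 2742, 311 and 205 CPM in MSA_ConA, 956, 232 and 281 CPM in ConA, and 260, 230 and 259 CPM in Control, and was high in MSA_ConA 1 and ConA 1 only. Among 8 tested genes of leucine degradation, the pathway of Auh, 0 were called between groups and the median log2 fold change was 0.18 for MSA_ConA against ConA, -0.23 for MSA_ConA against Control and -0.20 for ConA against Control. In numbers 2 and 3 only, the median was -0.076 for MSA_ConA against ConA, a change of sign, -0.24 for MSA_ConA against Control and -0.18 for ConA against Control.

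Of 10 matched genes of the propionyl-CoA and vitamin B12 route, which itaconyl-CoA can block by inactivating the mutase, 0 were called between groups. Mut, that mutase, was lower in number 1 by a log2 value of -1.20 (SE 0.20, adjusted p = 0.00321 by edgeR), and 2 genes of the list were called higher and 3 lower there (38.3% of all genes called). Mmaa, a chaperone of the mutase, measured 15.1, 17.8 and 16.9 CPM in MSA_ConA, 14.1, 20.4 and 17.3 CPM in ConA, and 52.0, 21.9 and 26.6 CPM in Control. Every Control value lay above both other groups, with a log2 fold change of -1.01 (SE 0.37, adjusted p = 0.937 by edgeR) for MSA_ConA against Control and of -0.96 (SE 0.37, adjusted p = 0.9997) for ConA against Control.

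Of 8 genes for transport and sensing of such acids, 7 were tested and 0 called between groups. Slc13a5, the citrate carrier of the plasma membrane, measured 115 CPM in MSA_ConA 1, 68.2 CPM in ConA 1 and 0.968 CPM in Control 1, and at most 1.99 CPM in the 6 other libraries. Its MSA_ConA against Control effect differed between number 1 and the others by 6.64 (SE 0.69, adjusted p = 0.00106 by edgeR). Sucnr1, the succinate receptor, measured 40.7 CPM in Control 1 and 2.18 to 7.93 CPM in the 8 others. Oxgr1, a receptor of oxoglutarate that also senses itaconate, was at 0 in all 9 libraries.

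By the root mean square difference between log2(CPM + 1) profiles centred on their means over the 9 libraries, the gene most like Sugct was Stx5a (0.0529), that most like Auh was Coq2 (0.0624) and that most like Suclg1 was Ppp1ca (0.0954). Clybl was nearest to Exosc7 (0.0964), Sucla2 to Rab1a (0.101) and then Dld, a dehydrogenase subunit shared by several mitochondrial complexes, and Suclg2 to Tm9sf1 (0.122). Mccc2, the carboxylase subunit that acts just before Auh in leucine degradation, was the third nearest to Suclg1 (0.0983), and Slc25a20, the mitochondrial carnitine carrier, the third nearest to Auh (0.0762). For Acod1, which did not pass the filter, the nearest of 11628 genes was Ch25h (0.0923), the cholesterol 25-hydroxylase of activated macrophages, which did not pass it either. Next came Duox2 (0.191) and Rn7sk (0.235), at 45.4 and 78.8 CPM in ConA 1 and at most 0.922 and 1.71 CPM elsewhere. The likeness of all these genes to Acod1 thus rests on the single library ConA 1. Ch25h measured 1.05, 0 and 0 CPM where Acod1 did so in MSA_ConA, 51.2, 0.155 and 0.0567 CPM in ConA, and 0 in all Control libraries.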

How the data were processed

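Liver RNA-seq of 9 libraries in 3 groups of 3 was used, grouped by title; columns headed M were matched to MSA_ConA, and the batch tag repeats the group. Per the labels' protocols, RNA came from Trizol extraction and an Illumina kit; per the submitters' processing notes, which give no roles, Bowtie 0.12.2, mm8 and mm10 were involved. The counting tool is not given in the sources used here. The authors deposited raw counts per gene and FPKM values, and each deposited FPKM equals the count divided by gene length and 1 effective total per library. Gene identifiers are those of the C57BL/6NJ assembly; promoters are from RefSeq on GRCm38.p6, matched by symbol for 7 of 7 members.

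edgeR 4.0.16 (R 4.3.3) quasi-likelihood tests were run on the counts, with TMM, the default filter by group (14603 genes), all 9 libraries and Benjamini-Hochberg adjustment over all genes; the test of a difference of effects used a mean per group and number class (3 residual degrees of freedom). Alternatives were limma-voom (limma 3.58.1), DESeq2 1.42.0, library totals, relative log expression, other filters and thresholds, 2 groups only, blocks, numbers 2 and 3 only, limma on log2(FPKM + 1) or log2(FPKM + 0.1), and each library left out. Scripts were tested on simulated data. Intervals and floors cover counting error only.

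Named genes were all members, for each list up to 3 called genes with the largest change or else the 2 with the smallest p, and the 3 nearest profiles per member; among these the text gives some, and others named from the lists were chosen after their values were seen. Members, lists, the division by library number and tests were chosen with earlier results of these data known. Same-numbered libraries deviated together across genes, at correlations of 0.489 to 0.720 in number 1. The correlations were 0.364 to 0.575 in number 2 and 0.337 to 0.493 in number 3. All were over 0.1, and on that ground numbers were taken to pair libraries. The main group comparisons nevertheless modelled the group only, and library number entered as a block in an alternative fit. Libraries of number 2 correlated with those of number 3 over a like range (0.332 to 0.706). These values therefore cannot decide whether number 2 and number 3 are separate pairings.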

Additional observations from a re-analysis of the deposited data

Results flagged for a closer look

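The effect of MSA_ConA against ConA on Auh differed between the library numbered 1 and those numbered 2 and 3 by a log2 value of 1.07 (edgeR adjusted p = 0.0208), by a test of the difference itself, where 18.7% of all genes were called. The effect of MSA_ConA against Control differed in the same way for Sucla2, by 1.03 (adjusted p = 0.0148), and for Auh, by 0.75 (adjusted p = 0.0418), where 32.6% of all genes were called. The members called, 1 of 6 and 2 of 6, are shares near those of all genes. Scaled by library totals, none of the 3 was called, at 0.79, 0.20 and -0.08. Each rests on 1 library numbered 1 per group, with the spread taken from numbers 2 and 3. In MSA_ConA 1, ConA 1 and Control 1, the TMM factors were 0.571, 0.673 and 0.950, the 20 most counted genes held 33.5%, 26.7% and 28.1% of counts and hepatocyte markers summed to 216307, 129107 and 122845 CPM; their part in these differences was not tested.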

How the results depend on the processing

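Differences of effect between number 1 and numbers 2 and 3 are called differences here. With the replicate block, 0 genes and 0 members were called in each group comparison, so the block changed no call there; it was not run for number 1 or the differences. DESeq2 called 2 genes for ConA against Control and 55 for MSA_ConA against Control. At an adjusted p under 0.01, 2513 genes were called for number 1, and 783, 2075 and 1864 for the MSA_ConA against ConA, MSA_ConA against Control and ConA against Control differences, with 0 members in each; limma-voom called 1623 for the first difference. For number 1, members called were 0 at an absolute log2 fold change of 1 and 4 (lower) by library totals, which called 6544 of 14603 genes, 5462 of them lower. By library totals they were 0, 0 and 2 for the 3 differences; DESeq2 called 2 and 1 for the first and second, and for the second limma-voom, no filter and a fold change of 1 gave 1 each.

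With 1 library left out, 0 genes and 0 members were called in each group comparison; counts ran from 4016 to 8145 genes and 1 to 2 members for number 1, 1368 to 2649 and 0 to 1 for the MSA_ConA against ConA difference, 3646 to 4729 and 1 to 2 for that of MSA_ConA against Control, and 3068 to 4659 and 0 for that of ConA against Control. No difference could be fitted without the number 1 library of its groups. Over these fits the log2 value changed sign for MSA_ConA against ConA in Sugct (-0.13 to 0.24), Suclg1 (-0.0091 to 0.15) and Clybl (-0.24 to 0.44). It did for MSA_ConA against Control in Sugct (-0.14 to 0.23), Suclg2 (-0.27 to 0.31), Auh (-0.35 to 0.26) and Clybl (-0.89 to 0.018). It did for ConA against Control in Sugct (-0.062 to 0.044) and Sucla2 (-0.095 to 0.38), and for number 1 in Sugct (-0.030 to 0.30) and Suclg1 (-0.036 to 0.18). Among the differences it did for Suclg2 (-0.16 to 0.22), Clybl (-0.20 to 0.15) and Sugct (-0.16 to 0.071), in the order of comparisons above.

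Library totals turned the sign for Sugct in the 3 group comparisons (-0.015, -0.10 and -0.088), for Suclg2 (-0.11) and Auh (-0.18) in MSA_ConA against Control, and for Sugct (-0.53), Suclg1 (-0.64) and Auh (-0.26) in number 1. They did so in the MSA_ConA against ConA difference for Suclg1 (-0.037) and Suclg2 (-0.22), in that of MSA_ConA against Control for Sugct (-0.19), Suclg1 (-0.37), Auh (-0.075) and Clybl (-0.80), and in that of ConA against Control for Suclg1 (-0.33) and Sucla2 (-0.28). No filter turned Suclg2 in MSA_ConA against Control (-0.028), Sugct in ConA against Control (-0.023), Suclg1 in number 1 (-0.0028) and Clybl in the MSA_ConA against Control difference (-0.043). Numbers 2 and 3 by themselves turned Sugct (-0.14) and Clybl (-0.10) in MSA_ConA against ConA, and Sugct (-0.13), Suclg2 (-0.20) and Auh (-0.24) in MSA_ConA against Control; limma-voom turned Auh there (-0.011). The cause was not tested.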
